A study of Mus musculus with 6 samples.

Results

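The genes described here are 10 that encode surface markers of endothelium, molecules that leukocytes hold on to, and the stored glycoprotein von Willebrand factor. They were chosen by name, as the rows whose gene symbol was Pecam1, Cdh5, Esam, Cd34, Emcn, Icam1, Icam2, Vcam1, Selp or Vwf. Each name matched 1 of the 22958 RefSeq gene entries, and all 10 passed the filter on low counts that left 12661 entries for testing. RNA sequencing had been done on brain endothelial cells that were CD31+, PECAM1+ by sorting, from E11.5 embryos of C57BL/6 x 129/Sv mice.

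The Axin1 group had 3 libraries from embryos labelled Cdhrs5CreERT2:R26Axin1IL+/-, which overexpressed Axin1, a scaffold of the complex that degrades beta-catenin. The control group had 3 libraries from embryos labelled Cdhrs5CreERT2:R26Axin1IL-/-, described as wildtype for Axin1 expression. Mothers of both groups received tamoxifen at embryonic day 9.5, so both groups share the inducible Cre label and the drug. The labels spell the Cre driver Cdhrs5, which matched 0 gene symbols in the tables, and they do not say whether Cdh5, 1 of the 10 genes, was meant. Nothing in them says how many embryos made a library, so the p-values reflect differences among these 6 libraries, which may be partly technical.

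Endothelial cells are held to each other by junction proteins and carry a coat of sialomucins on the side of the blood. During inflammation, leukocytes are slowed by selectins and then arrested when their integrins bind immunoglobulin-family molecules on the endothelium. In the healthy adult brain some of these arrest molecules, such as ICAM1 and VCAM1, are usually kept low. Von Willebrand factor and P-selectin are stored together in Weibel-Palade bodies. Sequencing of polyadenylated RNA here measures messenger RNA only, not protein at the surface. In bulk RNA, fewer cells of a type and less RNA per cell cannot be told apart.

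RefSeq start-site windows (build GRCm38.p6, 250 bases before to 50 after the start) matched 4 of the 10 genes: Cd34, Emcn, Icam1 and Selp. They are shown because Axin1 acts on beta-catenin, the partner of TCF/LEF factors, and because ETS factors bind many endothelial genes. Each was searched on both strands for CTTTGAT (a TCF/LEF word), CAGGAAG (an ETS word) and an NF-kB word (GGG, any 2 bases, then TTTCC). The 3 words do not overlap each other in these windows. The 3 windows that hold a word are printed with the word in capitals, here as it reads on the gene's own strand.
Cd34, chr1:194938571-194938870, + strand: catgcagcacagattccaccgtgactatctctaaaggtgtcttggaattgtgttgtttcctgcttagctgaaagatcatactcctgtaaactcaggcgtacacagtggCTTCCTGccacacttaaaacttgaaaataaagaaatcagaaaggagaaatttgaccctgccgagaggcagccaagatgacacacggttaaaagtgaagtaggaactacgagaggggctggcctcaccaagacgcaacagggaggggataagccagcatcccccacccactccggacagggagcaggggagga
Emcn, chr3:137340828-137341127, + strand: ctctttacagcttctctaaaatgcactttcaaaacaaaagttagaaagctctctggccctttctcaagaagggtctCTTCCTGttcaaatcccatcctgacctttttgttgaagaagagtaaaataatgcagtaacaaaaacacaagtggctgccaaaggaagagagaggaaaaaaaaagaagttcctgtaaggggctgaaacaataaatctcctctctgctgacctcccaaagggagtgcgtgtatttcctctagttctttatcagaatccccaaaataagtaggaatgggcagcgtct
Selp, chr1:164115014-164115313, + strand: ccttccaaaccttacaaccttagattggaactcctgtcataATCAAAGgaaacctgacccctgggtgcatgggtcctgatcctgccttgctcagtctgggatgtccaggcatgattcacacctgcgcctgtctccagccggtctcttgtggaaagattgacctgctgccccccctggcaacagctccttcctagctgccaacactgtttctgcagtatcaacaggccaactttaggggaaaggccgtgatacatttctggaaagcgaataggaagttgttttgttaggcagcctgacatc
In the Cd34 and Emcn windows the capitals are the reverse complement of the ETS word, beginning 142 and 174 bases before the start. In the Selp window they are the reverse complement of the TCF/LEF word, 209 bases before the start. Of all 32851 windows in the table, 13.3% hold the ETS word, 3.73% the TCF/LEF word and 1.63% the NF-kB word. The Icam1 window (chr9:21015690-21015989, + strand) holds none of the 3 words as spelled here. Other spellings of TCF/LEF, ETS or NF-kB sites were not searched, so their absence from any window is not shown. A match is a run of letters, and no binding was measured here.

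Libraries held 11633853 to 14234409 reads in the Axin1 group and 10772492 to 13035808 in the controls. Levels are CPM, read counts scaled to library size with TMM factors, unless RPKM is named. Axin1 had 79.8, 62.2 and 66.2 CPM in Axin1 libraries 1, 2 and 3, against 25.0, 17.6 and 20.8 CPM in controls 1, 2 and 3, so the labels held. Axin1 library 1 had the lowest summed levels of macrophage, megakaryocyte and erythroid markers: macrophage markers summed to 308 CPM there and to 3028 CPM in Axin1 library 3, against 499 to 974 CPM in the controls. Control 3 stood apart for Cdh5, as given with that gene. The 10 genes together took 0.718% to 0.787% of the reads in Axin1 libraries and 0.690% to 0.737% in controls.

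None of the 10 genes passed edgeR's quasi-likelihood test at an adjusted p of 0.05 over all tested genes, where 0.845% of genes did. At an unadjusted p under 0.05 there were 2, Cdh5 with a positive fold change and Esam with a negative one, against 17.2% of all tested genes. These were also the only members whose groups did not overlap, 2 of 10 against 23.8% of all tested genes. The DESeq2 test called 1 of the 10, Cdh5, as higher in the Axin1 libraries, where it called 3.17% of all tested genes higher and 2.52% lower. It gave Selp no adjusted p. The median log2 fold change of the 10 genes was 0.03, beside 0.02 over all tested genes.

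**Figure D1:**
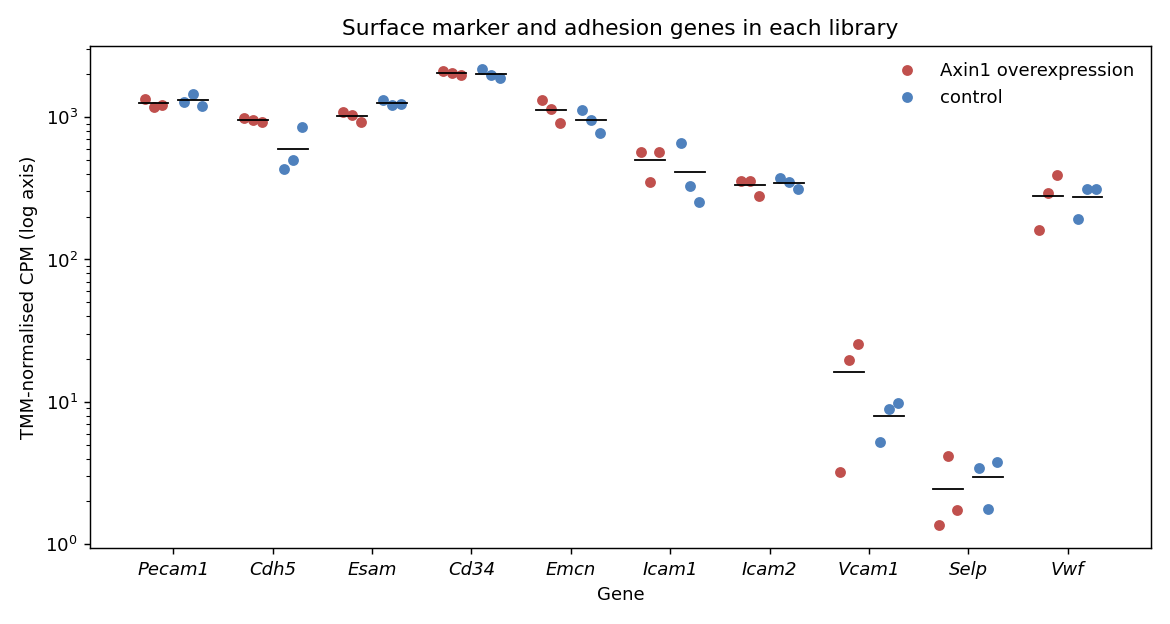
TMM-normalised CPM of the 10 genes in each library on a log axis, with Axin1 overexpression (red, left of each pair) and control (blue, right); points are libraries and bars are means of 3. Cdh5 and Esam are the genes whose groups do not overlap, and Vcam1 and Selp sit far below the other 8.

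On the per-length scale, the RPKM deposited by the authors, the sialomucin gene Cd34 stood highest, at 852 ± 27.4 RPKM in Axin1 libraries and 830 ± 47.3 RPKM in controls (SD, n = 3 each, as for all RPKM values here). Emcn had 765 ± 144 RPKM in Axin1 libraries and 638 ± 104 RPKM in controls, and Esam had 543 ± 44.6 RPKM in Axin1 libraries and 664 ± 21.4 RPKM in controls. Pecam1 followed at 378 ± 20.3 RPKM in Axin1 libraries and 394 ± 40.0 RPKM in controls. All 4 lay above more than 98.8% of the entries in the tables in both groups.

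Below these, Icam2 had 289 ± 40.9 RPKM in Axin1 libraries and 298 ± 20.4 RPKM in controls. Cdh5 had 237 ± 7.5 RPKM in Axin1 libraries and 147 ± 57.2 RPKM in controls, and Icam1 had 194 ± 47.7 RPKM in Axin1 libraries and 159 ± 80.0 RPKM in controls. Vwf was lower still, at 31.7 ± 12.9 RPKM in Axin1 libraries and 30.6 ± 8.39 RPKM in controls. Vcam1 had 4.73 ± 3.38 RPKM in Axin1 libraries and 2.32 ± 0.74 RPKM in controls, and Selp had 0.818 ± 0.539 RPKM in Axin1 libraries and 0.979 ± 0.356 RPKM in controls.

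Neighbours in this order were not always apart. In the Axin1 libraries the ranges of Cd34 and Emcn, of Icam2 and Cdh5, and of Vcam1 and Selp overlapped, and the other neighbours did not. In the controls, those of Esam and Emcn and of Icam1 and Cdh5 overlapped. The order differed between the groups at 2 places: Emcn stood above Esam in the Axin1 libraries and below it in the controls, and Cdh5 stood above Icam1 in the Axin1 libraries and below it in the controls.

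Among the junction and surface markers, Cdh5 had the lowest unadjusted p of the 10 genes after Esam. It encodes VE-cadherin, the adhesive cadherin of endothelial junctions, which binds beta-catenin with its cytoplasmic tail. Cdh5 stood at 981, 945 and 924 CPM in Axin1 libraries 1, 2 and 3, against 432, 502 and 846 CPM in controls 1, 2 and 3. The Axin1 libraries lay close together and above every control, while control 3 lay near them and controls 1 and 2 far below.

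The fold change of Cdh5 was 1.60 (log2 0.68, SE 0.24, 95% confidence interval 0.12 to 1.24). Adjusted over all genes, p was 0.218 in edgeR and 0.0406 in DESeq2. It rested on which controls were used. Without control 3 it was called at log2 1.01 (edgeR adjusted p 0.00222), in a fit that called 3.97% of all tested genes higher. In the 4 libraries that share a title number, which also leave control 3 out, a fit with that number as a block called it at log2 1.04 and called 7.67% of all tested genes higher. Leaving out any other library gave edgeR adjusted p values up to 0.467 and log2 fold changes down to 0.49. The coefficient of variation of Cdh5 was 3.04% in the Axin1 libraries and 37.3% in the controls.

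Set against the sorting marker, Cdh5 had 73.7, 79.9 and 75.7 reads per 100 Pecam1 reads in Axin1 libraries 1, 2 and 3, against 33.7, 34.5 and 70.6 in controls 1, 2 and 3. The split of the controls was therefore also present in this ratio within each library. Cldn5, the main claudin of brain endothelium and no member of the 10, had the same low pair of controls, with 186, 275 and 242 CPM in Axin1 libraries and 44.0, 48.2 and 196 CPM in controls. It was 1 of 18 other pan-endothelial genes. Eng of that list had 317, 324 and 311 CPM in Axin1 libraries and 183, 132 and 324 CPM in controls. The low pair was not general in the list: controls 1, 2 and 3 had 465, 417 and 464 CPM for Robo4 and 572, 624 and 540 CPM for Ecscr.

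The genes whose levels over the 6 libraries lay nearest to Cdh5, among 10132 others with a mean of at least 5 CPM, were Rasa3, Rnpc3, Qrich1, Lnx2 and Lman2. The measure was the Euclidean distance between log2 CPM values centred on each gene's mean, and it ran from 0.08 for Rasa3 to 0.21 for Lman2. Rasa3, a GTPase-activating protein for Ras and Rap, had 267, 273 and 261 CPM in Axin1 libraries, against 126, 139 and 236 CPM in controls. Qrich1 had 164, 151 and 163 CPM in Axin1 libraries, against 72.5, 84.4 and 138 CPM in controls. As for Cdh5, controls 1 and 2 were low and control 3 was near the Axin1 libraries, and none of the 5 genes passed edgeR's test (adjusted p 0.185 to 0.294). They were picked from many genes over few libraries, so near matches are to be found for most patterns.

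**Figure D2:**
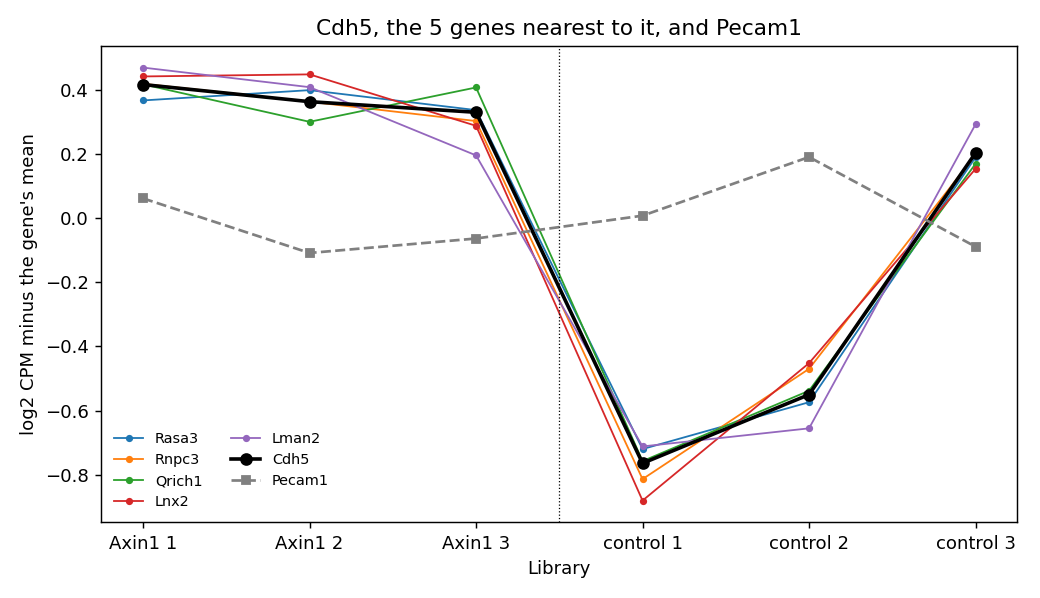
Log2 CPM of Cdh5 (black), the 5 genes nearest to it (colours) and Pecam1 (grey, dashed) in each library, minus each gene's mean over the 6 libraries; lines join values of 1 gene only to guide the eye. Controls 1 and 2 are low for Cdh5 and its 5 neighbours, while Pecam1 stays near its mean in all libraries.

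A list of 9 other genes held partners of VE-cadherin and the gene of another cadherin, Cdh2. Of these 9, 0 passed edgeR's test in either direction, 1 had an unadjusted p under 0.05, and DESeq2 called 1 as higher. Both of these counts are Jup, which encodes plakoglobin, a close relative of beta-catenin in the VE-cadherin complex. Over all tested genes, 17.2% had an unadjusted p under 0.05 and DESeq2 called 3.17% higher. Jup had 292, 384 and 274 CPM in Axin1 libraries, against 159, 163 and 244 CPM in controls, with a log2 fold change of 0.75 (SE 0.20, edgeR adjusted p 0.127). Its groups did not overlap, and control 3 was again the highest control. The list's median log2 fold change was 0.02, and it ran from -0.08 without control 1 to 0.10 without control 2. Cdh2, the gene of N-cadherin, had 199 ± 16.8 CPM in Axin1 libraries and 245 ± 37.7 CPM in controls (log2 -0.30, edgeR adjusted p 0.303).

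Esam encodes an immunoglobulin-family protein of endothelial tight junctions that is also found on platelets. It had 1083, 1026 and 925 CPM in Axin1 libraries 1, 2 and 3, against 1321, 1206 and 1227 CPM in controls 1, 2 and 3. Every Axin1 library lay below every control, with a gap that was small beside the level. The fold change was 0.808 (log2 -0.31, SE 0.10, 95% confidence interval -0.53 to -0.08), and the edgeR adjusted p was 0.176. No alternative fit called Esam, and its adjusted p over them ranged from 0.0823 to 0.402. Per 100 Pecam1 reads the groups overlapped, at 75.8 to 86.8 in Axin1 libraries and 82.9 to 103 in controls.

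The related junction genes Jam2 and Jam3, from a list of 21 other endothelial adhesion molecules and selectin ligands, also had negative fold changes and groups without overlap. Jam2 had 6.63, 11.02 and 14.2 CPM in Axin1 libraries, against 16.5, 39.0 and 24.4 CPM in controls (log2 -1.33, SE 0.38, edgeR adjusted p 0.151). Jam3 had 42.8 ± 4.35 CPM in Axin1 libraries and 56.8 ± 3.00 CPM in controls (log2 -0.41, edgeR adjusted p 0.168). The groups of F11r, the gene of JAM-A in the same list, overlapped. F11r had 615, 616 and 550 CPM in Axin1 libraries, against 664, 712 and 602 CPM in controls. Of the 16 genes of that list that could be tested, 0 passed edgeR's test, 2 had an unadjusted p under 0.05 with a positive and 3 with a negative fold change, and DESeq2 called 1 higher (Cd164) and 1 lower (Jam2). Of these 16 genes, 2 were higher and 2 lower in the Axin1 libraries without overlap, against 11.3% and 12.4% of all tested genes. Among all 12661 tested genes, 1147 had an unadjusted p under 0.05 with a positive and 1030 with a negative fold change. The list's median log2 fold change was -0.12.

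Pecam1 encodes CD31, the platelet-endothelial adhesion molecule that was the sorting marker. The sort may have affected its RNA level, which was not measured. It had 1331, 1182 and 1220.0 CPM in Axin1 libraries 1, 2 and 3, against 1282, 1455 and 1199 CPM in controls 1, 2 and 3. The groups overlapped, and the highest library of a group stood 1.13-fold above the lowest in the Axin1 group and 1.21-fold in the controls. The fold change was 0.949 with a 95% confidence interval of 0.801 to 1.12 (edgeR adjusted p 0.765).

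Cd34 and Emcn encode sialomucins; CD34 is also carried by blood progenitors, and endomucin is a marker of veins and capillaries. Cd34 had 2098, 2039 and 1979.7 CPM in Axin1 libraries, against 2181, 1959.9 and 1885 CPM in controls. The groups overlapped almost fully, and the interval of the fold change was the narrowest of the 10 genes on the log2 scale, at 0.874 to 1.18 around 1.02 (edgeR adjusted p 0.939). Emcn had 1322, 1144 and 902 CPM in Axin1 libraries, against 1121, 947 and 777 CPM in controls. Its groups overlapped too, with a fold change of 1.18 (95% confidence interval 0.896 to 1.56, edgeR adjusted p 0.527). The log2 fold change of Emcn, 0.24, was 0.10 when control 3 was left out and 0.11 when Axin1 library 1 was. It was 0.38 when either Axin1 library 3 or control 1 was left out.

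Other genes were taken from the list of endothelial adhesion molecules and selectin ligands by their small p. Cd164, which encodes endolyn, had 336, 345 and 379 CPM in Axin1 libraries, against 236, 264 and 248 CPM in controls, without overlap (log2 0.50, SE 0.10, edgeR adjusted p 0.0622). DESeq2 called it at an adjusted p of 0.00314. Madcam1, whose product is a mucosal addressin for gut-homing lymphocytes, had 63.1, 93.2 and 63.3 CPM in Axin1 libraries, against 46.8, 45.0 and 57.0 CPM in controls (log2 0.56, edgeR adjusted p 0.178).

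Among the molecules that arrest leukocytes, Icam1 and Icam2 encode ligands of the leukocyte integrin LFA-1. ICAM1 is inducible by inflammatory cytokines, while ICAM2 is constitutive on endothelium. Icam1 had 572, 349 and 568 CPM in Axin1 libraries 1, 2 and 3, against 658, 326 and 253 CPM in controls 1, 2 and 3. The libraries of each group spread widely, by 1.64-fold among Axin1 libraries and 2.60-fold among controls, and the highest and the lowest library were both controls. The fold change of 1.204 had a 95% confidence interval of 0.604 to 2.40 (edgeR adjusted p 0.789), so neither direction was resolved. On the log2 scale the fold change was 0.27, and it was 0.77 without control 1 and -0.0043 without control 3.

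Icam2 spread far less, with 357, 358 and 281 CPM in Axin1 libraries, against 373, 349 and 314 CPM in controls. Its groups overlapped, and its fold change was 0.961 with a 95% confidence interval of 0.785 to 1.18 (edgeR adjusted p 0.864). The coefficient of variation of Icam1 was 25.7% in Axin1 libraries and 52.3% in controls, and that of Icam2 was 13.4% in Axin1 libraries and 8.56% in controls.

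Icam1 and Vwf had levels that went with the number that opens the library titles. That number was 1813 for Axin1 library 1 and control 1, and 1814 for Axin1 library 2 and control 2. The labels do not say what it stands for. Icam1 had 572 CPM in the Axin1 library and 658 CPM in the control of number 1813, and 349 CPM in the Axin1 library and 326 CPM in the control of number 1814. Vwf had 160.1 CPM in the Axin1 library and 191 CPM in the control of number 1813, and 291 CPM in the Axin1 library and 314 CPM in the control of number 1814. For both genes the libraries that share a number lay nearer to each other than to the other library of their own group among these 4. The pattern was noticed in the values, rests on 2 pairs and was not tested.

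Vcam1 encodes the ligand of the integrin alpha4 beta1, and it is made by activated endothelium and also by mesenchymal cells and some macrophages. It was counted with 40, 286 and 295 reads in Axin1 libraries 1, 2 and 3, against 60, 116 and 107 reads in controls 1, 2 and 3. This gave 3.20, 19.7 and 25.5 CPM in Axin1 libraries and 5.25, 8.90 and 9.84 CPM in controls. Axin1 library 1 was the lowest of all 6 and Axin1 libraries 2 and 3 were the highest, so the groups overlapped.

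The fold change of Vcam1, 2.02, was the largest of the 10 genes and the least certain, with a 95% confidence interval of 0.616 to 6.59 (log2 1.01, SE 0.70, edgeR adjusted p 0.525). Without Axin1 library 1 it was log2 1.49 (edgeR adjusted p 0.0855), and without Axin1 library 3 it was 0.52 (edgeR adjusted p 0.844). Summed macrophage and microglia markers, 15 genes all detected in every library, were at 308, 1399 and 3028 CPM in Axin1 libraries 1, 2 and 3. In controls 1, 2 and 3 they were at 623, 974 and 499 CPM. They rose in the order of Vcam1 across the Axin1 libraries but not across the controls. Control 3 was the highest control for Vcam1 and the lowest for these markers. Megakaryocyte and platelet markers rose in the same order, with sums of 957, 2635 and 3834 CPM in Axin1 libraries 1, 2 and 3. Erythroid markers did so too, at 243, 1256 and 2661 CPM. Summed pericyte and mesenchyme markers, 15 genes, were at 141, 219 and 176 CPM in Axin1 libraries and 73.6, 116 and 193 CPM in controls, with 1 of them at 0 in control 1. The part of any of these marker groups in the Vcam1 values was not tested.

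The genes nearest to Vcam1 by the distance given for Cdh5 were Fcgrt, Dock2, BC013712, Elovl7 and Tmem119, at 0.49 to 0.64. Fcgrt encodes the neonatal Fc receptor, Dock2 a guanine nucleotide exchange factor of blood cells, and Tmem119 a marker of adult microglia. Dock2 had 4.87, 26.0 and 50.2 CPM in Axin1 libraries, against 7.70, 17.7 and 14.2 CPM in controls. These distances were larger than those of the genes nearest to Cdh5.

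Of 11 genes listed as counter-receptors of leukocytes, 10 could be tested. The cells that their RNA came from were not told apart here. None passed edgeR's test, 1 had an unadjusted p under 0.05, and DESeq2 called the same 1 as lower, Itga4. It encodes the alpha4 integrin chain that binds VCAM1 and had 79.2, 96.8 and 106 CPM in Axin1 libraries, against 139, 161 and 160.0 CPM in controls. Its groups did not overlap (log2 -0.71, SE 0.14, edgeR adjusted p 0.0575). Of all tested genes, 17.2% had an unadjusted p under 0.05 and DESeq2 called 2.52% lower. Itgb2, the beta2 chain of LFA-1, had 29.4, 72.3 and 112 CPM in Axin1 libraries, against 46.4, 54.2 and 38.8 CPM in controls, and was lowest and highest within the Axin1 group. Selplg, the gene of the P-selectin ligand PSGL-1, had 3.36, 10.1 and 15.6 CPM in Axin1 libraries, against 7.88, 5.60 and 4.14 CPM in controls. The list's median log2 fold change was 0.60, and it was 0.07 without Axin1 library 3 and 0.97 without Axin1 library 1.

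**Figure D3:**
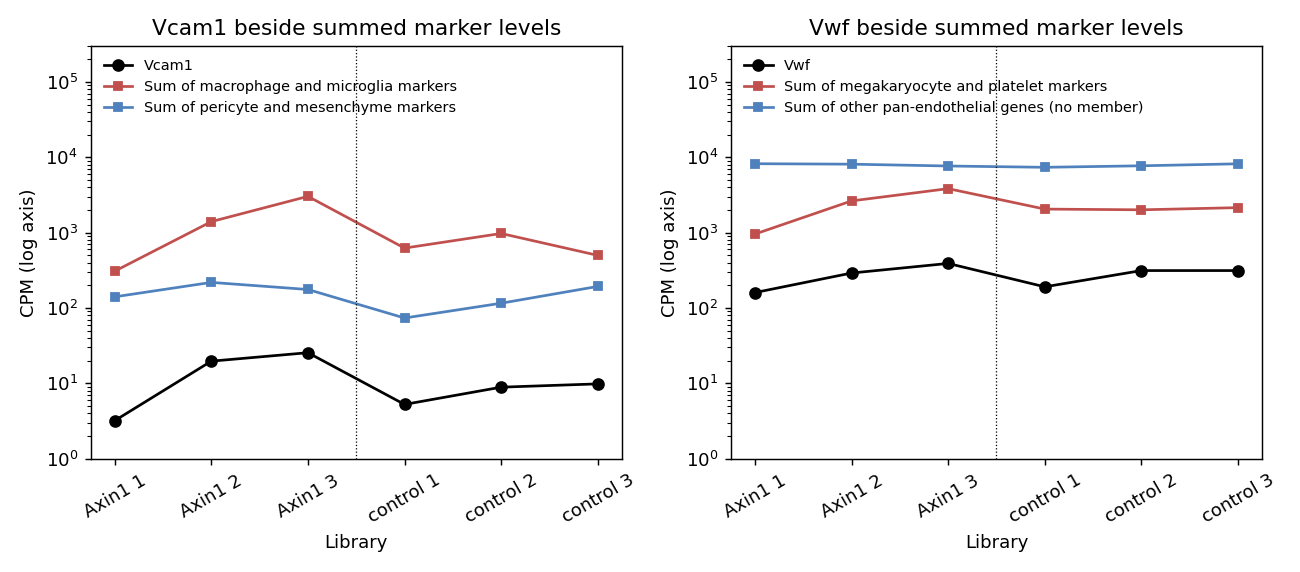
Levels per library on a log axis: left, Vcam1 with the summed CPM of macrophage and microglia markers and of pericyte and mesenchyme markers; right, Vwf with the summed CPM of megakaryocyte and platelet markers and of other pan-endothelial genes; lines join values of 1 quantity only to guide the eye. Vcam1, Vwf, the macrophage sum and the megakaryocyte sum are each lowest in Axin1 library 1 and highest in Axin1 library 3.

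Of 17 NF-kB response genes, which include the pathway's own feedback genes, 16 could be tested. None passed edgeR's test, 3 had an unadjusted p under 0.05 with a positive fold change, and DESeq2 called 1, Nfkb2, as higher (DESeq2 adjusted p 0.0117). Over all 12661 tested genes, 1147 had an unadjusted p under 0.05 with a positive fold change, and DESeq2 called 401 higher. In this list 4 genes were higher in the Axin1 libraries without overlap, against 11.3% of all tested genes. Nfkb2, a subunit gene of the factor, had 9.35, 13.98 and 20.4 CPM in Axin1 libraries, against 6.30, 3.45 and 6.80 CPM in controls (log2 1.40, SE 0.36, edgeR adjusted p 0.113). Nfkbia, the gene of the inhibitor IkB-alpha, had 199.9 to 404 CPM in Axin1 libraries and 158 to 196 CPM in controls, without overlap (edgeR adjusted p 0.281). The list summed to 577, 684 and 1350.2 CPM in Axin1 libraries, against 610.0, 585 and 525 CPM in controls. Its median log2 fold change was 0.66, and -0.03 without Axin1 library 3. That library also had the highest macrophage and megakaryocyte marker sums, whose part in these values was not tested.

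Vwf and Selp make products that are stored together in endothelial Weibel-Palade bodies and in platelet granules. Vwf had 160.1, 291 and 390.0 CPM in Axin1 libraries 1, 2 and 3, against 191, 314 and 314 CPM in controls 1, 2 and 3. The Axin1 libraries held both the lowest and the highest value. The fold change was 1.03 with a 95% confidence interval of 0.562 to 1.88 (edgeR adjusted p 0.971). Summed megakaryocyte and platelet markers, 13 genes all detected in every library, were at 957, 2635 and 3834 CPM in Axin1 libraries, against 2052, 2007 and 2145 CPM in controls. Macrophage and erythroid marker sums rose in the same order across the Axin1 libraries. The part of any of these markers in the Vwf values was not tested. Other pan-endothelial genes, which do not include the 10, summed to 7656 to 8211 CPM in Axin1 libraries and 7356 to 8186 CPM in controls.

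Selp encodes P-selectin, which starts the rolling of leukocytes and platelets. It was counted with 17, 61 and 20 reads in Axin1 libraries 1, 2 and 3, against 39, 23 and 41 reads in controls 1, 2 and 3. These counts gave 1.36, 4.20 and 1.73 CPM in Axin1 libraries and 3.41, 1.76 and 3.77 CPM in controls. The groups overlapped, and the fold change of 0.823 had a 95% confidence interval of 0.354 to 1.91 (edgeR adjusted p 0.836), so changes within those bounds were not resolved. The coefficient of variation of Selp was 63.6% in Axin1 libraries and 35.9% in controls. Sele, the gene of the other endothelial selectin, had 0, 0 and 5 reads in Axin1 libraries and 0, 0 and 1 read in controls. A count of 0 allows up to 3 reads, which is 0.207 to 0.263 CPM in the 4 libraries without a read, counting error only.

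Of 13 other genes for Weibel-Palade body cargo and release, 11 could be tested. None passed edgeR's test, 2 had an unadjusted p under 0.05 with a negative fold change, and DESeq2 called 1, Igfbp7, as lower (DESeq2 adjusted p 0.00763). Among all 12661 tested genes, 1030 had an unadjusted p under 0.05 with a negative fold change, and DESeq2 called 319 lower. Igfbp7, an IGF-binding protein gene of vessels, had 11.3, 17.1 and 17.5 CPM in Axin1 libraries, against 28.9, 28.5 and 26.9 CPM in controls (log2 -0.88, SE 0.20, edgeR adjusted p 0.0864). The list's median log2 fold change was -0.07, and it was 0.11 without control 3. Vamp3, a vesicle fusion gene, had 272 ± 30.9 CPM in Axin1 libraries and 341 ± 36.3 CPM in controls (log2 -0.33, edgeR adjusted p 0.233).

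**Figure D4:**
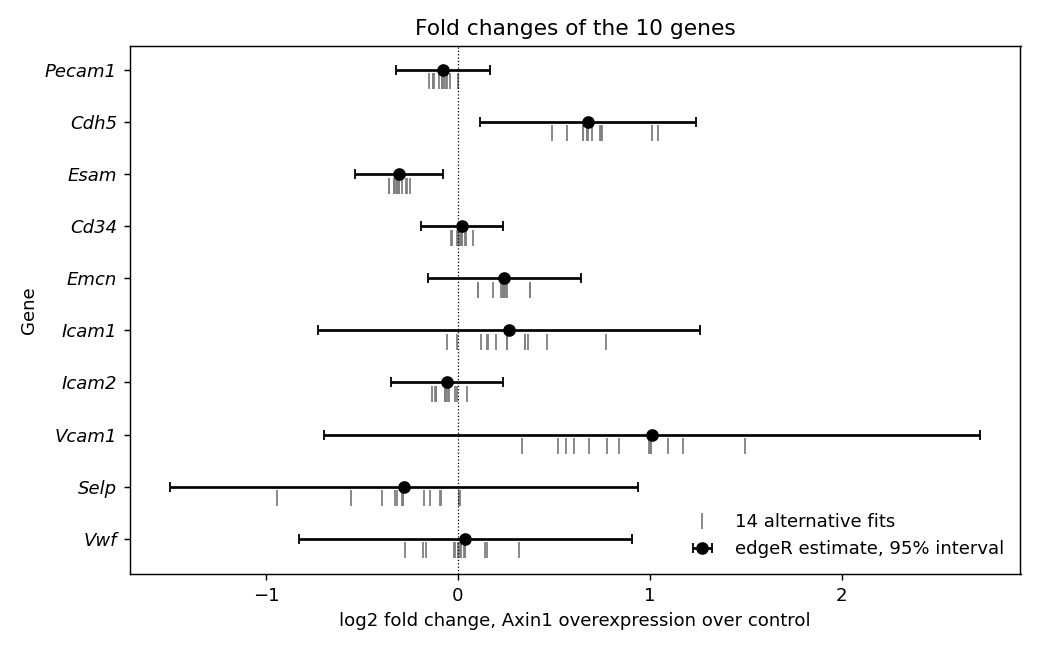
Log2 fold changes, Axin1 overexpression over control, of the 10 genes: points are edgeR estimates with 95% confidence intervals (3 libraries per group) and grey ticks are the estimates of the 14 alternative fits. Intervals are narrow for Cd34, Pecam1, Esam and Icam2, widest for Vcam1, and lie on 1 side of 0 for Cdh5 and Esam before adjustment.

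The members also differed in how alike their levels were over the libraries. By the distance used for Cdh5, taken over 9 of the 10 genes, the nearest pairs were Cd34 with Icam2 at 0.27, Pecam1 with Cd34 at 0.29 and Pecam1 with Icam2 at 0.34. The farthest pair was Icam1 with Vcam1 at 3.07. Selp, with a mean under 5 CPM, was the gene left out. The distances describe 6 libraries that the genes share and carry no test.

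All 18 other pan-endothelial genes were detected in every library. This shows endothelial RNA in both groups and does not bear on its origin in the brain. None of them passed edgeR's test, 1 had an unadjusted p under 0.05 in each direction, DESeq2 called 0, and their median log2 fold change was -0.04. Of all tested genes, 17.2% had an unadjusted p under 0.05 in either direction. Markers of other cells were present in both groups. By edgeR and by DESeq2, 0 of 15 macrophage, 0 of 7 erythroid, 0 of 14 pericyte and mesenchyme and 0 of 9 neural markers passed, and none of these had an unadjusted p under 0.05. Of 13 megakaryocyte and platelet markers, Clec1b, the gene of the podoplanin receptor CLEC-2, was called lower by DESeq2 alone (DESeq2 adjusted p 0.003, edgeR adjusted p 0.0681) and was the only 1 with an unadjusted p under 0.05. Median log2 fold changes were 1.11 for macrophage, 0.34 for megakaryocyte, -0.14 for erythroid, 0.51 for pericyte and mesenchyme and -0.06 for neural markers. Erythroid markers summed to 243 to 2661 CPM in Axin1 libraries and 693 to 3033 CPM in controls. Neural markers summed to 2681 to 3143 CPM in Axin1 libraries and 2509.6 to 2984 CPM in controls. Most of the neural sum was Vim, a gene that endothelial cells also express. Vim had 2331 to 2777 CPM in Axin1 libraries and 2162 to 2673 CPM in controls. These medians rested on single libraries: without Axin1 library 3 they were 0.27 for macrophage, -0.11 for megakaryocyte and -0.81 for erythroid markers, and without control 3 they were 1.01 for pericyte and mesenchyme and 0.78 for neural markers.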

How the data were processed

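Each library had its own deposited table, in which the authors gave, per the file headers, whole-number read counts and RPKM values by RefSeq entry. Bowtie and mm9 appear in the submitters' processing notes. The program that counted reads, with its strand setting, is not given in the sources used here. Exons of Cd34, Icam1, Vcam1 and Selp overlap an antisense or noncoding gene on the opposite strand in GENCODE M21, and their reads cannot be told apart. The counts were tested with edgeR 4.0.16 (R 4.3.3, limma 3.58.1): default filterByExpr settings (count at least 10, total at least 15), TMM, a robust quasi-likelihood fit with the group as its only term, and p-values adjusted by Benjamini-Hochberg over the 12661 tested genes. The SE is the log2 fold change divided by the square root of F. The deposited RPKM values served for levels between genes and 1 alternative. The fit was tested on simulated counts. Alternatives were DESeq2 1.42.0, limma-voom, limma on log2(RPKM + 1), other scalings, no filter, 6 fits without 1 library and 2 blocks.

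The 10 genes and the gene lists were chosen with earlier results of these data known. Named were the 10 genes, Axin1, and genes among the 4 with the smallest p of each list and the 5 nearest to Cdh5 and to Vcam1, the member with the largest fold change among those of at least 5 CPM. Sele, F11r, Eng and Vim were chosen after their values were seen.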

Additional observations from a re-analysis of the deposited data

How the results depend on the processing

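Of 140 values for the 10 genes under 14 alternatives, 122 kept their direction and their side of the threshold, 3 became calls and 15 changed sign without a call. Among the 122, Selp had no adjusted p with DESeq2 and was counted as not called. The calls were all of Cdh5, at log2 0.67 with DESeq2, and at 1.01 without control 3; with the title number as a replicate block in 4 libraries it was 1.04 (edgeR adjusted p 2.8e-06), which also leaves control 3 out. The number of members called was accordingly 1 in these 3 fits and 0 in the others, and 0 to 1 over the fits without 1 library.

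Without 1 library, log2 fold changes ran from -0.15 to 0.00305 for Pecam1, 0.49 to 1.01 for Cdh5, -0.36 to -0.25 for Esam, 0.10 to 0.38 for Emcn, 0.52 to 1.49 for Vcam1, -0.0363 to 0.081 for Cd34, -0.00429 to 0.77 for Icam1, -0.135 to 0.0499 for Icam2, -0.945 to 0.0053 for Selp and -0.27 to 0.32 for Vwf. Sign changes outside these fits were Cd34 at -0.0282 when scaled to other pan-endothelial genes, and Vwf at -0.018 with limma-voom. With the title number as a replicate block they were Cd34 at -0.00373, Icam1 at -0.0561, Selp at 0.0134 and Vwf at -0.18. With the description number as a replicate block Vwf was at -0.0153. Under that block the SE of Emcn was 0.0893, against 0.17 without it, and its edgeR adjusted p was 0.232. The SE of Vwf was 0.13 against 0.36 without it, that of Icam1 0.30 against 0.40, and that of Vcam1 0.44 against 0.70. Selp alone had a larger SE under the block, at 0.61 against 0.53.

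Over all genes the calls numbered 107; they were 197 with no filter, 720 with DESeq2, 105 with the description block and 1500 with the title block, and 0 to 695 without 1 library. Without Axin1 library 2 or control 2 edgeR called 0 genes, with 1733 and 1539 at an unadjusted p under 0.05. The description numbers were not taken as pairs: deviations from the group means correlated at 0.23, 0.15 and -0.02 for numbers 1, 2 and 3, and control 2 correlated best with Axin1 library 3 (0.17). Libraries of numbers 1 and 2 also share a title number, and those of number 3 do not. Crossed, Axin1 library 2 with control 1 correlated at -0.22 and Axin1 library 1 with control 2 at -0.25. Selp had the fewest reads of the 10 genes, 17 to 61 a library; how much of its spread is counting error was not tested.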
